A study of Homo sapiens with 60 samples.

Results

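CYP1A1 and CYP1B1 are genes of cytochrome P450 enzymes of family 1, and their mRNA levels are described here in all 60 libraries of a series on herbal extracts. They were found by their symbols and are 2 of the 60675 Ensembl gene IDs in the deposited table. CYP1A1 (ENSG00000140465) lies on chromosome 15 from 74719542 to 74725610 on the minus strand of GRCh38 in GENCODE release 29, and its principal transcript has 7 exons and 2685 bases. CYP1B1 (ENSG00000138061) lies on chromosome 2 from 38066973 to 38109902 on the minus strand, and its principal transcript has 3 exons and 5250 bases.

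The cells were HT29, an established human line from a colorectal adenocarcinoma, and all of them were kept in the same medium with serum and exposed for 24 h. The extract groups were water extracts of the decoctions Soshiho-tang and Yijin-tang, and ethanol extracts of Schisandrae Fructus, Liriopis seu Ophiopogonis Tuber, Zizyphi Semen, Longan Arillus, Aucklandiae Radix and Polygalae Radix, each a single herb. The low, medium and high doses were 20, 100 and 500 µg/mL, except for Aucklandiae Radix (14.8, 74 and 370 µg/mL) and Polygalae Radix (15.2, 76 and 380 µg/mL), where the series description ties the top dose to an inhibitory concentration below 500 µg/mL. Each dose had 3 libraries, but Soshiho-tang had 2 per dose and Aucklandiae Radix and Polygalae Radix had 1. The reference was the vehicle, DMSO (n = 3), given as 0.1% in the sample labels and as 2% in the series description.

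Family 1 enzymes oxidise flat aromatic molecules such as polycyclic aromatic hydrocarbons, and also oestrogens and fatty acids. CYP1A1 and CYP1B1 are the classical target genes of the aryl hydrocarbon receptor (AHR), a transcription factor that is held in the cytosol by chaperones until a ligand binds, then enters the nucleus and pairs with ARNT on DNA with the core letters GCGTG. In the intestine, AHR ligands come from food plants, from the microbiota and from tryptophan, and intestinal CYP1A1 takes part in their breakdown.

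The 250 bases before the RefSeq start of CYP1A1 (GRCh38.p14, chr15:74725529-74725778, minus strand) are shown because the gene had the widest range of levels here. The capitals mark the AHR and ARNT core GCGTG at positions -57 to -53 relative to the start, and the TATA box letters TATAAA at positions -32 to -27.
CYP1A1 promoter: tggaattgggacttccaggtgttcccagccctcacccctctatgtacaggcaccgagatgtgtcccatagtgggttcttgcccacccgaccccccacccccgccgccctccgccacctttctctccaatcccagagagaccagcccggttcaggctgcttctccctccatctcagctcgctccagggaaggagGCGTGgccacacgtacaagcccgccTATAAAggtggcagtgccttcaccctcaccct
Searched on both strands, GCGTG was present in 32.2% of the 35116 RefSeq promoter windows of this length, and TATAAA on the gene's strand in 6.8%. The longer form TNGCGTG, which contains GCGTG, was in 4.52% of the windows and not in this one.

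Library totals were between 18161717 and 35128954 expected counts, and levels are given as CPM, counts per 1000000 counts of a library, with the SD between libraries. All 9 markers of intestinal epithelium were present, with a sum of 8895 to 14223 CPM in extract libraries (16398 CPM in low dose Yijin-tang replicate 2), against 11845 to 13362 CPM in vehicle libraries. The labels do not say that the libraries of a group came from separate cultures, so p-values measure only the spread between these libraries. Vehicle libraries carry the set name C1 and extract libraries the set names 8 to 11, which the labels do not explain. In every comparison with the vehicle the extract, the library set and any difference in DMSO cannot be told apart, whereas dose steps and comparisons of both extracts of a set lie within a set. Fewer cells that make a transcript and less transcript per cell cannot be told apart in such bulk RNA.

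Both genes were highest after the high dose of Soshiho-tang. CYP1A1 was nearly silent in vehicle cells and had the largest rise on the log2 scale of all 16890 genes tested. CYP1B1 was already well expressed in vehicle cells and had a smaller fold change. At the high dose of Yijin-tang, Schisandrae Fructus, Longan Arillus and Zizyphi Semen both genes also tested higher than in the vehicle, with smaller fold changes. With Zizyphi Semen no step between doses passed for either gene with all libraries in the fit. Its CYP1A1 result did not hold when any single high dose library was left out. For Liriopis seu Ophiopogonis Tuber neither gene passed the test at any dose with all libraries in the fit. Aucklandiae Radix at the high dose, in a single library, had the second highest CYP1A1 level of the 25 groups and the lowest CYP1B1 level.

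CYP1A1 had 1.16 and 1.33 CPM in the libraries of low dose Soshiho-tang, 4.67 and 4.07 CPM at the medium dose and 157 and 169 CPM at the high dose, against 0.465, 0.337 and 0.657 CPM in vehicle libraries. No Soshiho-tang library reached down to a vehicle library, and no 2 doses overlapped. The vehicle values rest on 14, 9 and 20 counts, so that each has a wide counting interval (exact Poisson, 95%), for instance 0.154 to 0.639 CPM in the lowest library. Such intervals cover counting error only.

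The log2 fold change of CYP1A1 over vehicle was 1.27 ± 0.29 at the low dose (± SE, edgeR adjusted p = 0.0136), 3.09 ± 0.24 at the medium dose and 8.36 ± 0.22 at the high dose. The last of these corresponds to a 328-fold higher level (edgeR adjusted p = 6.95e-35), and the medium dose to an 8.5-fold higher one (edgeR adjusted p = 6.69e-16). As background, edgeR called 0.101% of the genes tested at the low dose, 0.237% at the medium dose and 7.93% at the high dose. CYP1A1 had the smallest p of all genes at the medium and at the high dose. The low dose call was lost without replicate 2 of the vehicle (log2 fold change 1.06) and without either replicate 2 (1.36) or replicate 3 (1.16) of low dose Soshiho-tang, which leaves 1 library that is assumed to vary like the other groups. It was also lost in a fit of the compared groups alone (1.27).

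CYP1B1 had 67.8 and 70.1 CPM in low dose Soshiho-tang libraries, 103 and 110 CPM at the medium dose and 364 and 374 CPM at the high dose, against 45.1, 48.1 and 43.2 CPM in vehicle libraries. Here too every library of a dose was above all those of the dose below it. The log2 fold changes over vehicle were 0.54 ± 0.07, 1.19 ± 0.07 and 3.02 ± 0.07 at the low, medium and high dose, the last an 8.12-fold higher level (edgeR adjusted p = 8.41e-31). In all 3 comparisons CYP1B1 had the second smallest p of all genes.

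Read per kilobase of transcript, the distance between both genes closed as the dose of Soshiho-tang rose. At the high dose CYP1A1 had 60.6 ± 3.1 and CYP1B1 70.2 ± 1.3 CPM per kilobase (SD, n = 2), so that CYP1B1 was 1.16 times as abundant. In vehicle cells the levels were 0.181 ± 0.060 and 8.67 ± 0.47 CPM per kilobase (SD, n = 3), and CYP1B1 was 33.6 to 73.1 times as abundant.

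**Figure D1:**
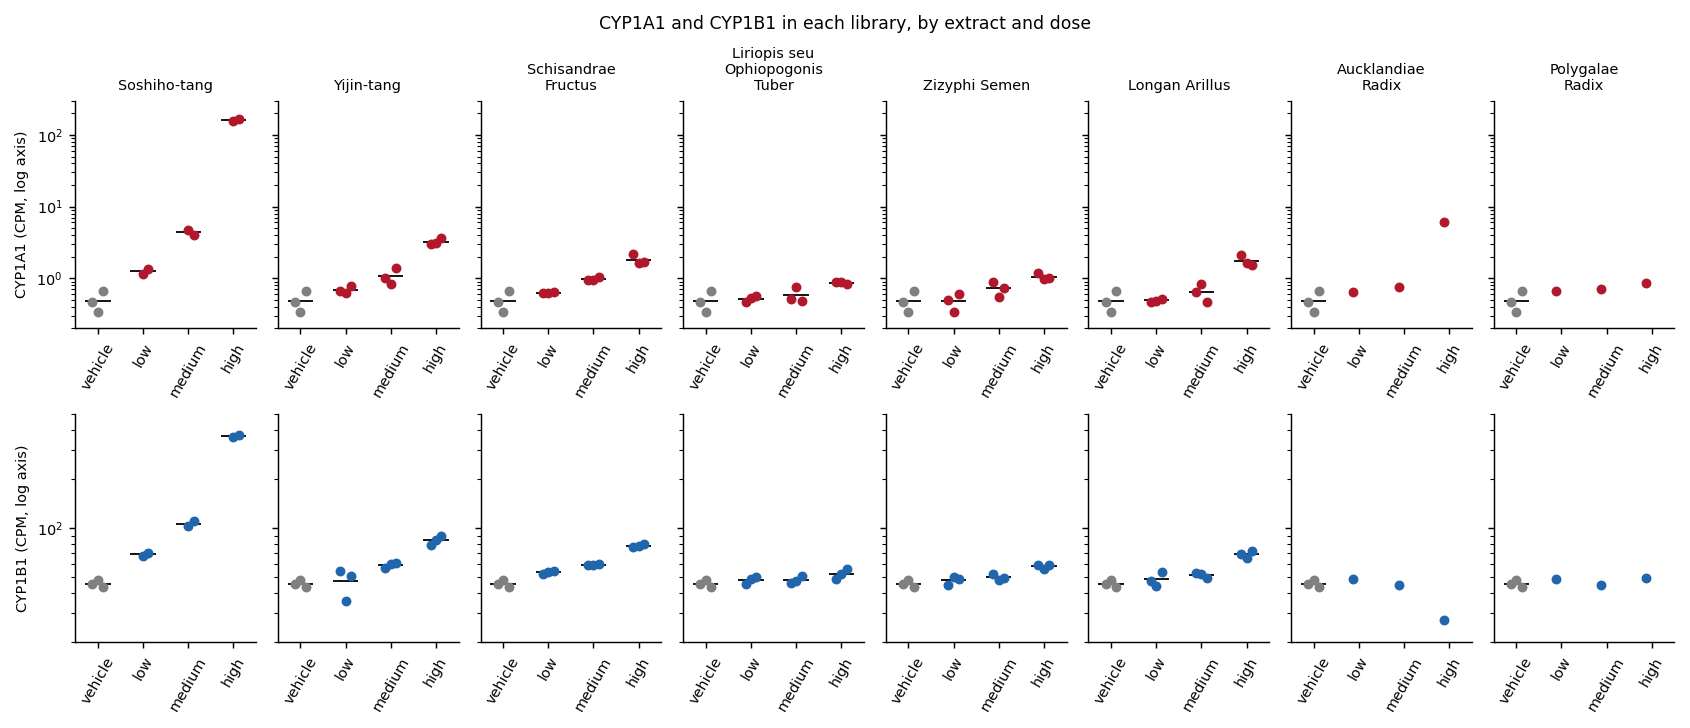
CYP1A1 (upper row) and CYP1B1 (lower row) in each of the 60 libraries, in CPM on log axes, by extract, with the vehicle at the left and then the low, medium and high dose; points are libraries and bars are means of groups with 2 or 3 libraries. CYP1A1 means, or single values where a dose had 1 library, climb with dose in all 8 extracts, and 5 of the 12 steps tested were called. High dose Soshiho-tang is at the top with 163 CPM. CYP1B1 after high dose Aucklandiae Radix lies at 27.2 CPM, below every other library.

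Yijin-tang is the other water extract and shares the library set of Soshiho-tang. CYP1A1 had 0.671, 0.616 and 0.769 CPM in its low dose libraries, 1.02, 0.827 and 1.38 CPM at the medium dose and 3.01, 3.08 and 3.60 CPM at the high dose. The low dose overlapped with the vehicle and the others did not. At the high dose the log2 fold change over vehicle was 2.67 ± 0.24 (edgeR adjusted p = 3.99e-14), the smallest p of all genes, in a comparison where 1.05% of genes were called.

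At the medium dose of Yijin-tang the log2 fold change of CYP1A1 was 1.06 ± 0.28 (edgeR adjusted p = 0.0272, with 0.42% of genes called). That call was lost without replicate 1 (1.02) or replicate 2 (0.86) of the vehicle and without replicate 1 (1.10) or replicate 3 (0.88) of the medium dose. It was also lost with no filter on low counts (1.05) and in a fit of the compared groups alone (1.07). At the low dose neither gene passed the test, although 12.1% of genes did. Replicate 2 of low dose Yijin-tang stood apart from the other libraries of its group. Without it and replicate 3 of high dose Soshiho-tang, 339 genes in place of 2039 were called at the low dose, and CYP1A1 still passed at the medium dose (1.06) and the high dose (2.67).

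CYP1B1 had 54.8, 35.8 and 50.6 CPM in low dose Yijin-tang libraries, 57.0, 60.2 and 60.8 CPM at the medium dose and 79.0, 84.1 and 89.7 CPM at the high dose. The 35.8 CPM belong to replicate 2, the library that stood apart. The log2 fold change over vehicle was 0.34 ± 0.06 at the medium dose (edgeR adjusted p = 0.00347, not called with no filter on low counts, 0.32) and 0.86 ± 0.06 at the high dose (edgeR adjusted p = 1.06e-12).

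Among the single herbs, Schisandrae Fructus and Longan Arillus gave the largest rises of the pair in tests with replicates. CYP1A1 averaged 0.628 ± 0.007, 0.977 ± 0.057 and 1.82 ± 0.29 CPM at the low, medium and high dose of Schisandrae Fructus (SD, n = 3 each), against 0.486 ± 0.161 CPM in vehicle cells (n = 3). At the high dose the libraries had 2.16, 1.65 and 1.66 CPM, all above the vehicle, and the log2 fold change was 1.85 ± 0.25 (edgeR adjusted p = 3.3e-08). CYP1B1 averaged 53.6 ± 0.9, 59.6 ± 0.8 and 78.0 ± 1.6 CPM at these doses (SD, n = 3 each), against 45.5 ± 2.5 CPM in vehicle cells (n = 3).

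CYP1B1 had the smallest p of all genes at the high dose of Schisandrae Fructus, with a log2 fold change of 0.73 ± 0.06 (edgeR adjusted p = 5.47e-10). It passed at the medium dose as well (0.35 ± 0.06, edgeR adjusted p = 0.00306), where CYP1A1 did not (0.95 ± 0.28, edgeR adjusted p = 0.0688). At the low dose neither passed. Without the 2 libraries that stood apart in other groups, CYP1A1 passed at the medium dose (0.95) and CYP1B1 at the low dose (0.17). The share of all genes called was 0.16% at the low dose, 0.474% at the medium dose and 0.693% at the high dose.

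Longan Arillus raised both genes at the high dose. CYP1A1 had 2.08, 1.63 and 1.55 CPM in high dose libraries, against 0.337 to 0.657 CPM in vehicle libraries, and the log2 fold change was 1.79 ± 0.25 (edgeR adjusted p = 2.4e-07). That CYP1A1 call was lost in a fit of the compared groups alone (1.79). CYP1B1 had 69.6, 65.9 and 72.2 CPM, against 43.2 to 48.1 CPM in vehicle libraries, and the log2 fold change was 0.56 ± 0.06 (edgeR adjusted p = 5.86e-07). These 2 genes had the smallest p of all and made up 2 of the 14 genes called (0.0829%). At the low and medium dose, where 0.107% and 0.0118% of genes were called, neither gene passed, and CYP1A1 averaged 0.490 ± 0.023 and 0.643 ± 0.189 CPM (SD, n = 3 each).

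At the high dose of Zizyphi Semen, from the library set of Longan Arillus, both genes were also higher than in the vehicle. CYP1A1 had 1.18, 0.970 and 1.01 CPM and CYP1B1 59.1, 56.5 and 59.2 CPM in high dose libraries, all above the vehicle libraries. The log2 fold changes were 1.07 ± 0.27 for CYP1A1 (edgeR adjusted p = 0.0401) and 0.35 ± 0.06 for CYP1B1 (edgeR adjusted p = 0.0045), with 0.16% of genes called.

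The CYP1A1 call for high dose Zizyphi Semen did not hold without replicate 1 (1.03) or replicate 2 (0.86) of the vehicle, or without any one of the high dose libraries (1.01 to 1.12). It was also lost with no filter on low counts (1.06) and in a fit of the compared groups alone (1.07). The CYP1B1 call was lost without replicate 3 of the vehicle (0.34, adjusted p = 0.0619 in edgeR) and with no filter on low counts (0.35). At the low and medium dose, with 0.0355% and 0.0296% of genes called, neither gene passed.

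For Liriopis seu Ophiopogonis Tuber, CYP1A1 had 0.885, 0.880 and 0.822 CPM in high dose libraries, above all vehicle libraries, but its log2 fold change of 0.75 ± 0.28 did not pass (edgeR adjusted p = 0.294). CYP1B1 averaged 52.4 ± 3.7 CPM at the high dose (SD, n = 3), with a log2 fold change of 0.16 ± 0.06 (edgeR adjusted p = 0.442). Without the 2 libraries that stood apart in other groups, this CYP1B1 change passed (0.16). The share of genes called was 0.491% at the low dose, 0.373% at the medium dose and 0.45% at the high dose. The unadjusted 95% interval of the high dose change was 0.18 to 1.32 for CYP1A1 and 0.03 to 0.28 for CYP1B1 on the log2 scale.

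Over the 18 extract doses with replicates, CYP1A1 was called higher in 8 and CYP1B1 in 9, and neither was called lower. CYP1A1 had the smallest p of all genes in 4 of the 18 and CYP1B1 in 1. All 18 share the same vehicle libraries, so they are not independent of each other.

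**Figure D2:**
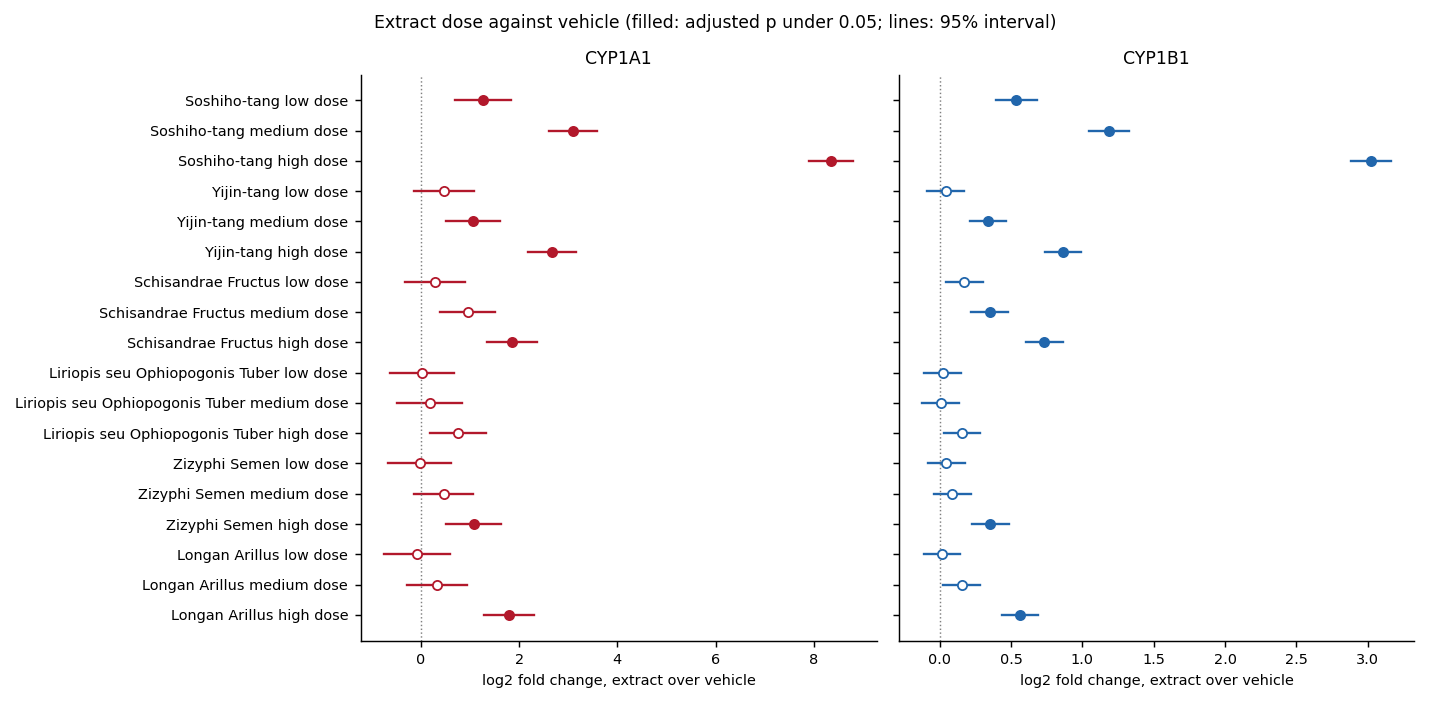
Log2 fold change of CYP1A1 (left) and CYP1B1 (right) over vehicle for the 18 extract doses with replicates, with lines for the 95% interval and filled points where the edgeR adjusted p was under 0.05. The 3 Soshiho-tang doses are all filled in both panels, and the widest departure is 8.36 for CYP1A1 against 3.02 for CYP1B1.

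Dose steps within an extract leave out the vehicle and stay within a library set. From low to medium dose, Soshiho-tang raised CYP1A1 by 1.82 ± 0.21 and CYP1B1 by 0.65 ± 0.08 on the log2 scale, and these were 2 of only 3 genes called (0.0178%). From medium to high dose the steps were 5.27 ± 0.13 for CYP1A1 (edgeR adjusted p = 4.65e-28) and 1.84 ± 0.08 for CYP1B1 (edgeR adjusted p = 6.14e-21), the smallest and second smallest p, among 3.78% of genes called. Both genes thus had a larger log2 step between the upper doses than between the lower ones, although each step was a 5-fold change in concentration, and this difference between steps was not tested.

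Yijin-tang raised CYP1A1 by 1.61 ± 0.19 and CYP1B1 by 0.53 ± 0.06 between the medium and the high dose, where 0.0355% of genes were called. Between its low and medium dose CYP1A1 did not pass (0.59 ± 0.26, edgeR adjusted p = 0.0888), and CYP1B1 passed (0.30 ± 0.06, edgeR adjusted p = 0.0138) among 16.3% of genes called. That CYP1B1 call was lost without replicate 2 of the low dose (0.18, edgeR adjusted p = 1) and without replicate 1 (0.32) or replicate 2 (0.28) of the medium dose. It was also lost in a fit of the compared groups alone (0.29).

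Longan Arillus raised CYP1A1 by 1.46 ± 0.24 (edgeR adjusted p = 2.38e-05) and CYP1B1 by 0.41 ± 0.06 (edgeR adjusted p = 0.00106) between the medium and the high dose, 2 of 3 genes called (0.0178%). Schisandrae Fructus raised CYP1A1 by 0.90 ± 0.20 (edgeR adjusted p = 0.0137) and CYP1B1 by 0.38 ± 0.06 (edgeR adjusted p = 0.00235) over the same step, with 0.071% of genes called. The CYP1A1 call for Schisandrae Fructus was lost without replicate 1 of the high dose (0.74) and without any one of the medium dose libraries (0.88 to 0.96). The CYP1A1 step was not called for Longan Arillus (1.46) or Schisandrae Fructus (0.90) in a fit of the compared groups alone.

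No gene at all was called by edgeR (0%) for the low to medium step of Schisandrae Fructus, Liriopis seu Ophiopogonis Tuber, Zizyphi Semen and Longan Arillus, nor for the medium to high step of Liriopis seu Ophiopogonis Tuber and Zizyphi Semen. In the 11 comparisons of any kind with no edgeR call, 248 to 1022 genes had an unadjusted p under 0.05 and DESeq2 called 0 to 10. In the medium to high step of Zizyphi Semen, CYP1B1 had the 4th smallest p of all genes (0.27 ± 0.06, edgeR adjusted p = 0.515), and it passed without the 2 libraries that stood apart in other groups (0.27). CYP1A1 thus passed in 5 and CYP1B1 in 6 of 12 dose steps, all of them rises.

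**Figure D3:**
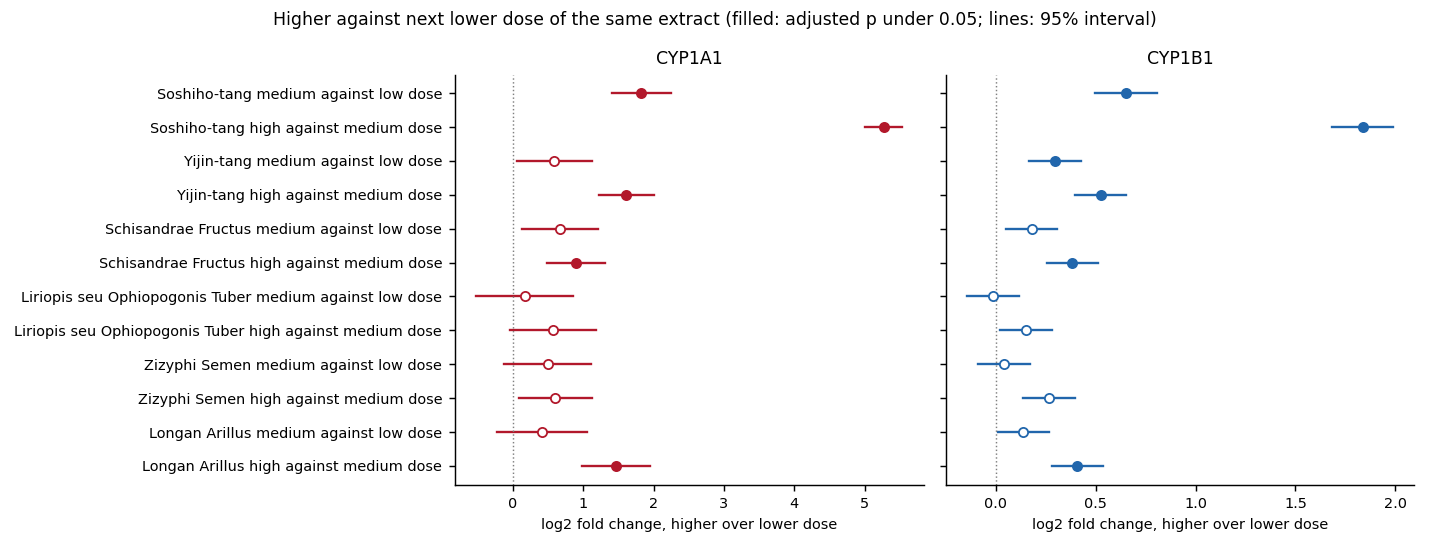
Log2 fold change of CYP1A1 (left) and CYP1B1 (right) between neighbouring doses of each of 6 extracts, with lines for the 95% interval and filled points where the edgeR adjusted p was under 0.05. The medium to high step of Soshiho-tang stands farthest from 0 in both panels, at 5.27 and 1.84, and the Liriopis seu Ophiopogonis Tuber and Zizyphi Semen steps are all open.

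The mean CYP1A1 level rose from dose to dose in 8 of 8 extracts, the 2 with single libraries included. That of CYP1B1 did so in 5 of 8 and fell from dose to dose in 1, Aucklandiae Radix. The share of all genes with such an order was not determined, and only 5 of the 12 CYP1A1 steps tested were called. With Polygalae Radix the CYP1A1 values rest on 15, 18 and 22 counts. Their exact Poisson intervals overlap (0.377 to 1.11, 0.415 to 1.11 and 0.532 to 1.28 CPM). CYP1A1 also responded more steeply on the log2 scale. Between low and high dose its log2 CPM increased by 7.01 with Soshiho-tang, 2.09 with Yijin-tang, 1.43 with Schisandrae Fructus, 0.67 with Liriopis seu Ophiopogonis Tuber, 1.08 with Zizyphi Semen and 1.70 with Longan Arillus. The increases of CYP1B1 were 2.49, 0.83, 0.56, 0.13, 0.31 and 0.55 in that order.

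The high minus low dose difference was larger for CYP1A1 than for CYP1B1 in 6 of 6 extracts, by 1.52 log2 units on average. High and low dose labels were permuted within extracts over 17 and 17 libraries, and the two-sided permutation p was 1e-05, the smallest that 100000 resamples can give. Without Soshiho-tang the average difference was 0.92, with the same p in a permutation test.

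Extracts that share a library set were compared at equal doses, with 3 pairs at 3 doses. Soshiho-tang exceeded Yijin-tang by 5.68 ± 0.12 for CYP1A1 and 2.16 ± 0.07 for CYP1B1 on the log2 scale at the high dose, the smallest and second smallest p of all genes with 3.72% called. At the medium dose the differences were 2.03 ± 0.19 and 0.85 ± 0.07, and these were 2 of 3 genes called (0.0178%). At the low dose CYP1B1 was higher with Soshiho-tang (0.49 ± 0.07, edgeR adjusted p = 0.000359, with 0.0355% called), and CYP1A1 did not pass (0.79 ± 0.27, edgeR adjusted p = 0.0646).

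The low dose CYP1B1 difference was lost without replicate 3 of low dose Soshiho-tang (0.47, edgeR adjusted p = 0.0631) and in a fit of the compared groups alone (0.49). The CYP1A1 difference passed without replicate 1 (0.75) or replicate 3 (0.86) of low dose Yijin-tang, and in DESeq2 (0.79). The increase between low and high dose was itself larger with Soshiho-tang than with Yijin-tang, by 4.89 ± 0.29 for CYP1A1 (edgeR interaction test, adjusted p = 3.18e-16) and 1.67 ± 0.10 for CYP1B1 (adjusted p = 1.47e-15 in the same edgeR test), where 4.38% of genes were called. The CYP1B1 interaction was not called in a fit of the compared groups alone (1.67).

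Schisandrae Fructus exceeded Liriopis seu Ophiopogonis Tuber at the high dose by 1.10 ± 0.21 for CYP1A1 (edgeR adjusted p = 0.000713) and 0.58 ± 0.06 for CYP1B1 (edgeR adjusted p = 5.1e-07), with 0.0947% of genes called. Without replicate 1 of high dose Schisandrae Fructus the CYP1A1 difference was 0.94 and did not pass, nor did it in a fit of the compared groups alone (1.10). At the medium dose CYP1B1 had the smallest p of all genes but missed the threshold (0.35 ± 0.06, edgeR adjusted p = 0.0624), and at the medium and low doses 0% of genes were called. That CYP1B1 difference passed with the replicate number as a block (0.34), in DESeq2 (0.35) and without the 2 libraries that stood apart in other groups (0.34). The dose increase did not differ past the threshold for either gene (edgeR interaction test, 0.00592% called), with unadjusted 95% intervals of 0.06 to 1.60 for CYP1A1 and 0.24 to 0.61 for CYP1B1. For CYP1B1 the interaction passed in a fit of the compared groups alone (0.43), in DESeq2 (0.43) and without those 2 libraries (0.42).

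Zizyphi Semen and Longan Arillus did not differ past the threshold at any dose. At the high dose the log2 difference of CYP1A1, Zizyphi Semen minus Longan Arillus, was -0.72 ± 0.21 (edgeR adjusted p = 0.51, unadjusted 95% interval -1.14 to -0.30), and CYP1B1 differed by -0.21 ± 0.06 (edgeR adjusted p = 1, unadjusted 95% interval -0.34 to -0.08), with 0.0237% of genes called. At the medium and low doses and in the interaction test 0% of genes were called.

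Aucklandiae Radix and Polygalae Radix had 1 library per dose, so their values carry no test, and their doses match those of no other extract. CYP1A1 had 0.652, 0.745 and 6.03 CPM at the low, medium and high dose of Aucklandiae Radix, the last from 155 counts (exact Poisson interval 5.12 to 7.06 CPM). That is 12.4 times the vehicle mean. CYP1B1 had 48.9, 44.9 and 27.2 CPM at these doses, and the last, from 699 counts (25.2 to 29.3 CPM), is 0.598 times the vehicle mean and the lowest of all 60 libraries.

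The log2 ratios of high dose Aucklandiae Radix to the vehicle mean were 3.63 for CYP1A1 and -0.74 for CYP1B1. The median log2 ratio of all genes in this library was -0.107, and relative to that median the values were 3.74 and -0.64. At least 2-fold higher were 1.03%, 1.04% and 6.63% of genes at the low, medium and high dose, and CYP1A1 ranked 33rd of 16852 at the high dose, counted from the highest ratio. CYP1B1 ranked 13448 of 16852 in the same order, above the genes with lower ratios still. The sum of the 4 endothelial markers was 8.45 CPM in this library, with CDH5 and KDR at 0, against 0.963 to 1.57 CPM in vehicle libraries, and its part in these values was not tested.

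With Polygalae Radix the measured value of neither gene was 2-fold away from the vehicle mean. CYP1A1 had 0.674, 0.700 and 0.848 CPM at the low, medium and high dose, and CYP1B1 had 48.4, 44.5 and 49.4 CPM. The high dose CYP1A1 value rests on 22 counts, with an exact Poisson interval of 0.532 to 1.28 CPM. That interval includes a level 2-fold above the vehicle mean of 0.486 CPM. The median log2 ratio of all genes was 0.108 at the high dose, and relative to it CYP1A1 stood at 0.69 and CYP1B1 at 0.01. At least 2-fold higher were 1.39%, 1.44% and 2.23% of genes at the 3 doses.

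**Figure D4:**
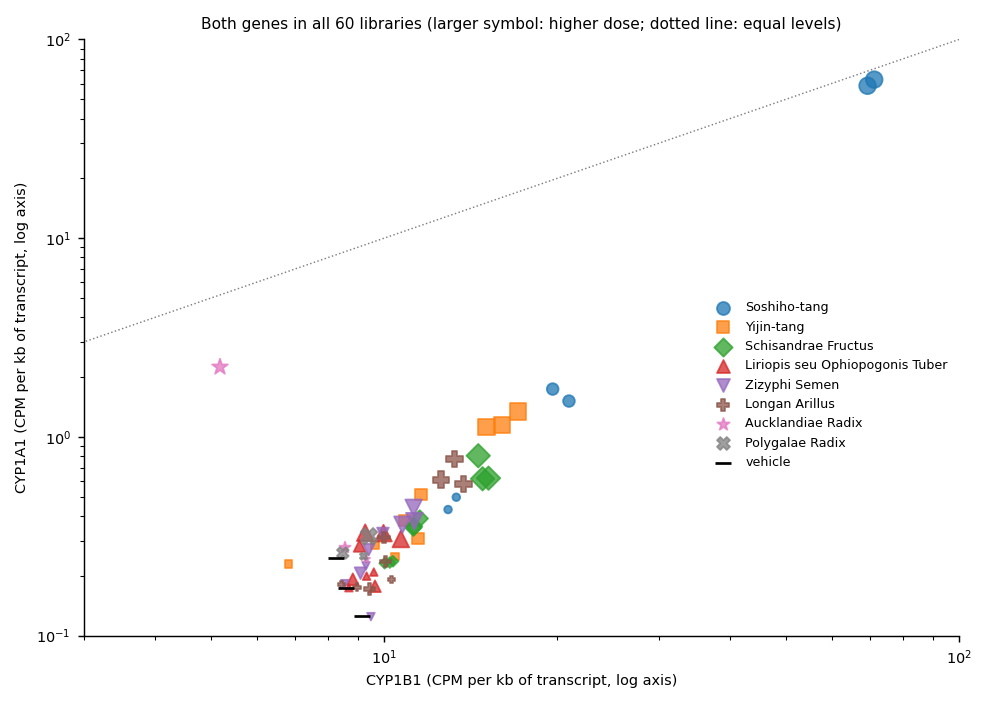
CYP1A1 against CYP1B1 in all 60 libraries, both in CPM per kilobase of transcript on log axes, with a symbol for each extract, a larger symbol for a higher dose and dashes for vehicle. High dose Soshiho-tang (60.6 and 70.2 on average) lies near the dotted line of equal levels, most other libraries lie in a band far below it, and high dose Aucklandiae Radix (2.25 and 5.18) lies to the left of the band.

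In the order of mean levels over the 25 groups, the top of the CYP1A1 order was high dose Soshiho-tang (163 ± 8.2 CPM), high dose Aucklandiae Radix (6.03 CPM), medium dose Soshiho-tang (4.37 ± 0.43 CPM) and high dose Yijin-tang (3.23 ± 0.32 CPM). Each of these lay clear of its neighbour below. High dose Schisandrae Fructus and high dose Longan Arillus followed at 1.82 and 1.76 CPM and overlapped with each other. Of the 24 neighbouring pairs in this order 16 overlapped in range, and so did 16 of the 24 pairs in the CYP1B1 order.

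The CYP1B1 order was led by high dose Soshiho-tang (369 ± 7.0 CPM), medium dose Soshiho-tang (107 ± 4.9 CPM), and then high dose Yijin-tang (84.3 ± 5.3 CPM) and high dose Schisandrae Fructus, whose ranges overlapped. High dose Longan Arillus (69.2 ± 3.1 CPM) and low dose Soshiho-tang (68.9 ± 1.6 CPM) overlapped as well. The vehicle stood in place 22 in the CYP1B1 order and in place 24 in the CYP1A1 order.

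CYP1B1 is overlapped on the opposite strand by CYP1B1-AS1, an antisense gene from 38073447 to 38231651 on chromosome 2, and at its end by RMDN2 and RMDN2-AS1. The library kit keeps the strand, but whether the counting used it is not stated. Expected counts of CYP1B1 were whole (within 1e-09) in only 2 of 60 libraries, against 60 of 60 for CYP1A1, so some CYP1B1 reads were shared out between genes. CYP1B1-AS1 held 1.95% to 8.01% as many counts as CYP1B1, and rose by 1.54 ± 0.21 on the log2 scale with high dose Soshiho-tang (edgeR adjusted p = 6.51e-07). It did not pass with the high dose of the other 5 extracts tested, and its lowest group level, 1.09 CPM, was in high dose Aucklandiae Radix, as for CYP1B1.

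CLK3, EDC3 and CSK lie within 100 kb of CYP1A1. With high dose Soshiho-tang their log2 fold changes were 0.30 ± 0.06, 0.38 ± 0.06 and 0.29 ± 0.07. All passed the test, in a comparison where 7.93% of all genes were called. CYP1A2, the third enzyme gene of the family, which lies head to head with CYP1A1, had 0 to 6 counts per library and was not tested. The high dose Soshiho-tang libraries held 2 and 6 counts, no other library more than 1, and the vehicle libraries 0.

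Other genes of the AHR pathway are given by lists. With high dose Soshiho-tang, 7 of 9 tested further AHR target genes were higher and none lower, with a median log2 fold change of 0.58 over the 9, against -0.00035 over all genes, of which 7.93% were called. The aldehyde dehydrogenase genes ALDH1A3 (2.21 ± 0.07) and ALDH3A1 (1.59 ± 0.08) and the growth factor gene EREG (0.93 ± 0.09) were among them. UGT1A6 rose too (0.60 ± 0.08), but it shares exons with the other UGT1A genes, so its value is uncertain. Without the library that held leukocyte transcripts, described at the end, and the Yijin-tang library that stood apart, the list median was 0.48. That fit leaves a single library of high dose Soshiho-tang, which is assumed to vary like the other groups.

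The same list gave 3 higher genes with Yijin-tang, 2 with Schisandrae Fructus, 2 with Zizyphi Semen, 1 with Longan Arillus and 0 with Liriopis seu Ophiopogonis Tuber at the high dose, and none lower. The shares of all genes called were 1.05%, 0.693%, 0.16%, 0.0829% and 0.45% in this order. Without those 2 libraries the list counts were 5, 5, 3, 2 and 1, while the shares of all genes called were 7.16%, 6.17%, 3.15%, 2.22% and 4.85%. ALDH1A3 was called in each of the first 4, at 0.67 ± 0.07, 0.57 ± 0.07, 0.39 ± 0.07 and 0.52 ± 0.07. It was a called gene wherever both CYP1A1 and CYP1B1 were called at a high dose. A further list held 8 tested genes for the receptor, its partners and its repressors. Of these, TIPARP (1.42 ± 0.11) and AHRR (0.80 ± 0.15), both of which restrain the receptor, rose with high dose Soshiho-tang. TIPARP (0.39 ± 0.10) rose with Yijin-tang. The median of that list was 0.07 with Soshiho-tang, where 7.93% of all genes were called. Without those 2 libraries these calls stayed, and TIPARP was also called higher with high dose Schisandrae Fructus and Longan Arillus. It was called with high dose Zizyphi Semen too, where 1 of the 8 genes was higher and 1 lower. None of the 8 was called with Liriopis seu Ophiopogonis Tuber.

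Listed enzymes outside family 1 are given for high dose Soshiho-tang, where 7.93% of all genes were called, or 12.4% without those 2 libraries. The fit without those 2 libraries leaves a single library of high dose Soshiho-tang. Of 12 tested phase I genes of families 2 and 3 and their electron donors, CYP2W1 fell by 0.94 ± 0.31 on the log2 scale. The others did not pass, with a list median of -0.06. Without those 2 libraries CYP2W1 and CYP3A5 were called, 1 higher and 1 lower of 13, with a median of -0.02. Of 14 tested conjugating enzymes 4 rose, led by the sulfotransferase SULT2B1 (0.58 ± 0.10), with a list median of 0.04. UGT1A10 (0.34 ± 0.06) and UGT1A8 (0.28 ± 0.08) were among the 4, and their values are uncertain because of the exons shared with UGT1A6. Without those 2 libraries 3 of 15 rose, UGT1A10 included, with a median of -0.04. Of 9 tested genes for enzymes with oestrogen or eicosanoid substrates 4 rose, among them the cyclooxygenase PTGS2 (0.82 ± 0.09) and the fatty acid hydroxylase CYP4F11 (1.48 ± 0.23), with a list median of 0.40. Without those 2 libraries 3 of these rose, PTGS2, CYP4F11 and CYP4F3, of 10 tested, with a median of 0.25. With high dose Yijin-tang, where 1.05% of all genes were called, CYP4F11 alone of these 9 passed (0.85 ± 0.22). Without those 2 libraries PTGS2 passed too, among 10 tested, with 7.16% of all genes called.

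The genes whose group mean log2 CPM ran most like CYP1A1 over the 25 groups were ALDH1A3 (Pearson r = 0.97), ADGRF1 (0.97), SLC22A3 (0.96), LRRN4 (0.89), ST3GAL4 (0.89) and TIPARP (0.86). Those most like CYP1B1 were VIPR1 (0.93), ST3GAL4 (0.90), NKD2 (0.86), CYP1A1 itself (0.82), ADGRF1 (0.81) and MOCOS (0.79). The groups share library sets and doses, and high dose Soshiho-tang weighs heavily. Without that group the likeness of CYP1A1 and CYP1B1 to each other was 0.38 in place of 0.82. With CYP1A1, ALDH1A3 then had 0.92, ADGRF1 0.90, LRRN4 0.89, SLC22A3 0.86, TIPARP 0.80 and ST3GAL4 0.55. With CYP1B1, VIPR1 had 0.71, MOCOS 0.64, NKD2 0.64, ST3GAL4 0.61 and ADGRF1 0.42.

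Replicate 3 of high dose Soshiho-tang held more transcripts of leukocyte markers than any other library. The 8 leukocyte markers, none of them at 0, summed to 28.8 CPM. In replicate 2 the sum was 4.30 CPM, with PTPRC, HLA-DRA, S100A8, S100A9 and CD3E at 0. Vehicle libraries had 7.11 to 8.18 CPM, and extract libraries other than those that stand apart had 3.93 to 8.92 CPM. Without replicate 3 and the Yijin-tang library that stood apart, the high dose log2 fold changes over vehicle were 8.32 for CYP1A1 and 3.02 for CYP1B1. That fit leaves only replicate 2 at the high dose of Soshiho-tang, which is assumed to vary like the other groups.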

How the data were processed

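Strand-specific mRNA libraries were sequenced with paired reads, per the labels' protocols. Tools named in the submitters' processing notes are RSEM 1.3.3, STAR 2.7.3a, Trim Galore 0.6.5 and FastQC 0.11.9, and the build is GRCh38; the annotation release and the use of strand in counting are not given in the sources used here. The values that the authors deposited are expected counts, unnormalized, in 1 table of genes by libraries. Symbols were found for 57055 of 60675 gene IDs, and positions come from GENCODE 29. The series description names a wortmannin positive control, which was not analysed here.

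Expected counts were rounded to whole numbers. CPM are expected counts divided by the library total and multiplied by 1000000. In R 4.3.3, edgeR 4.0.16 kept 16890 genes with filterByExpr, scaled 54 libraries by TMM and fitted 1 quasi-likelihood model with the group (19 groups) as the only term. The 42 contrasts were tested two-sided, and a gene was called at a Benjamini-Hochberg adjusted p under 0.05 over all genes. Standard errors are from the fit and no smaller than the counting (Poisson) error. The biological coefficient of variation was 9.71%. Groups of 1 library were set against the vehicle mean without a test. The steps were tested on simulated data. Each comparison was repeated with DESeq2 1.42.0, with RLE in place of TMM, without the filter, on the compared groups alone, with a replicate block, with a prior count of 2 and without each library in turn. Leaving out the libraries that stand apart, and TMM scaling for groups of 1 library, were added after seeing the data.

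The members and lists were chosen with earlier results of these data known. Genes named besides the members are, by rule, the 6 with the highest Pearson r of group mean log2 CPM, genes within 100 kb, and up to 4 called genes of a list with the lowest p at a high dose, not all of which are named. Lists covered the AHR complex, its other targets, phase I and II enzymes, enzymes with oestrogen or eicosanoid substrates, and markers of 6 cell types, of which hepatocyte markers summed to 16.4 to 22.3 CPM and fibroblast markers to 1.49 to 3.78 CPM in extract libraries other than those that stand apart. The result of 1 of these marker lists is not reported here.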

Additional observations from a re-analysis of the deposited data

Results flagged for a closer look

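The change between low and high dose differed between Soshiho-tang and Yijin-tang for both genes, by the interaction test. With Soshiho-tang, CYP1A1 rose by 4.89 log2 units more than with Yijin-tang, and CYP1B1 by 1.67 more. CYP1A1 had 157 and 169 CPM at the high dose and 1.16 and 1.33 CPM at the low dose of Soshiho-tang, and 3.01 to 3.60 CPM and 0.616 to 0.769 CPM at those doses of Yijin-tang. When single libraries were left out, the difference was 4.80 to 4.99 for CYP1A1 and 1.57 to 1.78 for CYP1B1. The CYP1B1 difference (1.67) did not pass in a fit of the compared groups alone.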

How the results depend on the processing

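Log2 fold changes follow. With no filter on low counts, 4 calls were lost: CYP1A1 (1.05) and CYP1B1 (0.32) with medium dose Yijin-tang, and CYP1A1 (1.06) and CYP1B1 (0.35) with high dose Zizyphi Semen. With only the compared groups in the fit, which leaves fewer libraries to estimate the spread, 10 calls were lost: CYP1A1 against vehicle for low dose Soshiho-tang (1.27), medium dose Yijin-tang (1.07), high dose Zizyphi Semen (1.07) and high dose Longan Arillus (1.79); CYP1A1 between medium and high dose of Schisandrae Fructus (0.90) and Longan Arillus (1.46); CYP1B1 between low and medium dose Yijin-tang (0.29); Soshiho-tang over Yijin-tang for CYP1B1 at the low dose (0.49) and in the dose interaction (1.67); and Schisandrae Fructus over Liriopis seu Ophiopogonis Tuber for CYP1A1 at the high dose (1.10). The CYP1B1 dose interaction of that last pair was gained in this fit (0.43), in DESeq2 (0.43) and without both libraries that stand apart (0.42). DESeq2 also gained Soshiho-tang over Yijin-tang for CYP1A1 at the low dose (0.79) and CYP1B1 for the medium dose of Schisandrae Fructus over Liriopis seu Ophiopogonis Tuber (0.35). That last call was the single one gained with the replicate number as a block (0.34). The cause of these changes was not tested. Of 31 comparisons with 3 pairs, 0 had a correlation of same-numbered libraries' deviations over 0.1 in every pair, so the numbers were not used as pairs.

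Without both libraries that stand apart, calls gained were CYP1A1 with medium dose Schisandrae Fructus (0.95), CYP1B1 with low dose Schisandrae Fructus (0.17) and high dose Liriopis seu Ophiopogonis Tuber (0.16), CYP1B1 between medium and high dose Zizyphi Semen (0.27) and CYP1B1 for medium dose Schisandrae Fructus over Liriopis seu Ophiopogonis Tuber (0.34); CYP1B1 between low and medium dose Yijin-tang was lost (0.18). RLE normalization and a prior count of 2 changed no call. With TMM scaling and a prior count of 0.5, CYP1B1 after high dose Polygalae Radix was set against the mean vehicle log2 CPM. The difference was 7.88e-05, in place of a log2 ratio of 0.12 to the vehicle mean CPM.

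Leaving out single libraries moved 9 results over the threshold. CYP1A1 ran from 1.06 to 1.57 with low dose Soshiho-tang, 0.86 to 1.36 with medium dose Yijin-tang, 0.86 to 1.37 with high dose Zizyphi Semen, 0.74 to 0.99 between medium and high dose Schisandrae Fructus, 0.94 to 1.18 for high dose Schisandrae Fructus over Liriopis seu Ophiopogonis Tuber, and 0.69 to 0.89 for low dose Soshiho-tang over Yijin-tang. CYP1B1 ran from 0.34 to 0.38 with high dose Zizyphi Semen, 0.18 to 0.39 between low and medium dose Yijin-tang, and 0.37 to 0.59 for low dose Soshiho-tang over Yijin-tang.

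The number of genes called moved by over 1.5 times in 34 of 42 comparisons with DESeq2, 34 with only the compared groups, 23 with no filter, 2 with the block and 35 without both libraries that stand apart, and when single libraries were left out it moved so far in 126 cases and not in 132. For high dose against vehicle, the fit without both libraries that stand apart called more genes. It called 1240 in place of 177 with Yijin-tang and 1070 in place of 117 with Schisandrae Fructus. With Liriopis seu Ophiopogonis Tuber it called 841 in place of 76. With Zizyphi Semen it called 546 in place of 27, and with Longan Arillus 384 in place of 14. With Soshiho-tang it leaves a single high dose library, so that count is not given. CYP1A1 in vehicle cells rests on 9 to 20 counts per library, which limits fold changes near its low end. By Spearman rho, 4 of the 6 genes most like CYP1A1 and 0 of the 6 most like CYP1B1 stayed in the first 6.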
